A study of Homo sapiens with 9 samples.

Results

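The genes described here are 34 genes of amino acid supply that respond to the transcription factor ATF4 in mammalian cells. They fall into 11 genes of amino acid synthesis (ASNS, PHGDH, PSAT1, PSPH, SHMT2, MTHFD2, ALDH18A1, PYCR1, CBS, CTH and GPT2), 9 genes of amino acid transport (SLC7A11, SLC3A2, SLC7A5, SLC7A1, SLC1A5, SLC1A4, SLC38A1, SLC38A2 and SLC6A9) and 13 genes of cytosolic tRNA charging (AARS1, CARS1, EPRS1, GARS1, IARS1, LARS1, MARS1, NARS1, SARS1, TARS1, WARS1, YARS1 and XPOT). STC2, a secreted glycoprotein, was kept apart from these 3 groups. The rule lists the genes by name and uses no measured value, but the list was chosen with earlier results of these data known. All 34 were matched by symbol among the 61544 genes counted, and all 34 were among the 18653 genes with enough reads to be tested.

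RNA-Seq was done on H1975, a human lung adenocarcinoma line that carries mutant EGFR. Every culture was first treated for 24 h with si78 to deplete its own GRP78; the target of this siRNA is the 3′ untranslated region, which the plasmids lack. A plasmid then followed for 48 h: the empty vector, F-78(WT) (WT from here on), which is FLAG-tagged wild-type GRP78, or F-78(NLS Mut) (NLS Mut), in which lysines of the nuclear localization signal are replaced by alanine. Each group had 3 libraries. Cells that did not receive si78 were not analysed here, so the vector group is a group treated with si78. The extent of depletion could therefore not be measured in these libraries. In separate experiments the paper reported reduced GRP78 protein after si78 in lung cancer lines. The comparison of WT with NLS Mut asks what depends on the nuclear localization signal, and the comparisons with vector ask what follows the return of each form.

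When amino acids run short or unfolded proteins build up in the endoplasmic reticulum, kinases phosphorylate the initiation factor eIF2. General translation then falls while ATF4 is translated more, and ATF4 enters the nucleus with a C/EBP partner. There it binds a composite site, the C/EBP-ATF response element, and raises enzymes that make amino acids, transporters that import them and synthetases that load them onto tRNA. GRP78 is the chaperone that holds the stress sensors of the endoplasmic reticulum inactive, and the kinase PERK is one of these sensors.

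The response element is shown first because it is the sequence feature that members of the program are known for. Promoter windows from 250 bases before to 50 bases after a transcription start were given by RefSeq (GRCh38.p14) for 27 members, in 41 windows. PSPH, SHMT2, PYCR1, GPT2, SLC7A11, LARS1 and YARS1 had no window in the table. The core of the element was searched as TGATGNAA, or TTNCATCA on the other strand, where N is any base. It was present in 13 of the 41 windows (31.7%), against 3.62% of all 35116 windows and 2.69% of the 22198 windows of protein-coding genes. The 13 windows belonged to 13 members. Of the windows, 7 of 16 were of tRNA charging genes (43.8%), 5 of 14 of transport genes (35.7%) and 1 of 10 of a synthesis gene (10.0%). The members were picked as ATF4-responsive genes, so this share is a description of the choice and not an independent result. A match of 8 letters is also not a measured binding site. In the lines that follow, 30 bases around the core are given 5′ to 3′ on the strand of the gene, with the core in capitals.
SLC3A2 (chr11:62881719-62881748, plus strand): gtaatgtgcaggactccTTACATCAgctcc
SLC38A1 (chr12:46266502-46266531, minus strand): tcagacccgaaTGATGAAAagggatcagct
SLC1A5 (chr19:46784893-46784922, minus strand): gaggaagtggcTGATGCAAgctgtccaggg
ASNS (chr7:97872458-97872487, minus strand): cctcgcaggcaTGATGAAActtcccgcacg
AARS1 (chr16:70289675-70289704, minus strand): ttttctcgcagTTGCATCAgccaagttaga
NARS1 (chr18:57621804-57621833, minus strand): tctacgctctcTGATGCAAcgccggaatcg
MARS1 (chr12:57488053-57488082, plus strand): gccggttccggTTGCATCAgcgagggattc
SLC3A2 and SLC38A1 are shown because they were called below, ASNS and AARS1 because they are described below, and the other three because they hold the commonest form. Read on the strand that starts with TGATG, that form was TGATGCAA, which 8 members held (AARS1, CARS1, IARS1, MARS1, NARS1, SLC1A4, SLC1A5 and TARS1). It was present in 0.866% of all windows. TGATGAAA was held by 4 members (ASNS, GARS1, SLC38A1 and SLC7A1) and TGATGTAA by SLC3A2. The core began 187 bases before the start in AARS1, 68 bases before it in ASNS and 4 bases before it in MARS1 and SLC38A1.

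The E-box CACGTG, a site that MYC and related factors bind, was also searched. It was present in 4 of the 41 windows (9.76%), in 7.26% of all windows and in 8.34% of the windows of protein-coding genes. The 4 members were ALDH18A1, SLC7A5, SLC1A5 and IARS1, and no E-box overlapped a core of the response element. The window of SLC7A5 had no ATF core, and its E-box is shown for that reason, with the site in capitals.
SLC7A5 (chr16:87869620-87869649, minus strand): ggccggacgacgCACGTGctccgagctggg

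The 9 libraries held 17671055 to 27476298 counted reads. Values per library are counts scaled to a common library size (CPM, with library sizes adjusted by the TMM method). HSPA5, the gene of GRP78, was the check of the vector label against the GRP78 labels, and its counts include reads from the plasmid. Counts per gene cannot tell WT from NLS Mut, so those labels were not checked against each other. HSPA5 stood at 359, 383 and 391 CPM in the vector libraries, at 5031, 5814 and 6145 CPM in WT, and at 4962, 5156 and 4765 CPM in NLS Mut. Both GRP78 groups thus lay far above vector, and their ranges overlapped each other, with a log2 difference of 0.19 between WT and NLS Mut (95% interval 0.09 to 0.30, adjusted p = 0.079 by edgeR's quasi-likelihood test). ATF4 itself ranged from 362 to 429 CPM and was not called in any comparison, with log2 differences of -0.05, -0.12 and -0.07 for WT against NLS Mut, WT against vector and NLS Mut against vector. These values are of ATF4 mRNA, while the factor is regulated mainly in its translation. Epithelial markers summed to 3114 to 3656 CPM per library with none of the 5 at 0. Endothelial and leukocyte markers summed to at most 8.05 and 2.33 CPM, and DCN, CD3E and CD68 were listed at 0 in every library. SARS2 and VARS2, synthetases that all cells use, were also listed at 0, so that a 0 in these files does not show that a gene was silent. The log2 values of each library, as deviations from the mean of the 9 libraries, were also fitted against GC content. Per 10 points of GC they changed by -0.04, 0.09 and 0.10 in vector replicates 1, 2 and 3. The changes were -0.07, 0.03 and -0.04 in WT and -0.02, -0.04 and -0.02 in NLS Mut. Vector replicate 1 thus lay within the range of the WT and NLS Mut libraries, and vector replicates 2 and 3 lay above it. In comparisons with vector, the GC trend and the group are therefore not fully separated. The labels do not state that replicates came from separate cultures, so the p-values measure only the spread between these libraries, which may be technical. In bulk RNA, a change in the number of cells and a change in RNA per cell cannot be told apart.

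All members were expressed, over a wide range. Levels of different genes are compared per exonic length, as CPM per kilobase (RPKM), and are means ± SD over the 9 libraries. SLC7A5, which imports large neutral amino acids such as leucine, had the highest level at 213 ± 18.3 RPKM. AARS1, the alanyl-tRNA synthetase, was the most abundant tRNA charging gene (155 ± 7.37 RPKM), ahead of GARS1 (134 ± 5.14 RPKM) and WARS1 (126 ± 7.93 RPKM). The SD ranges of GARS1 and WARS1 overlapped. PSAT1, the aminotransferase of serine synthesis, was the most abundant synthesis gene at 118 ± 8.64 RPKM. At the lower end stood CTH (8.27 ± 1.33 RPKM) and CBS (2.15 ± 0.27 RPKM), the pair of enzymes that make cysteine from homocysteine, and ASNS, the asparagine synthetase, at 0.965 ± 0.237 RPKM.

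**Figure D1:**
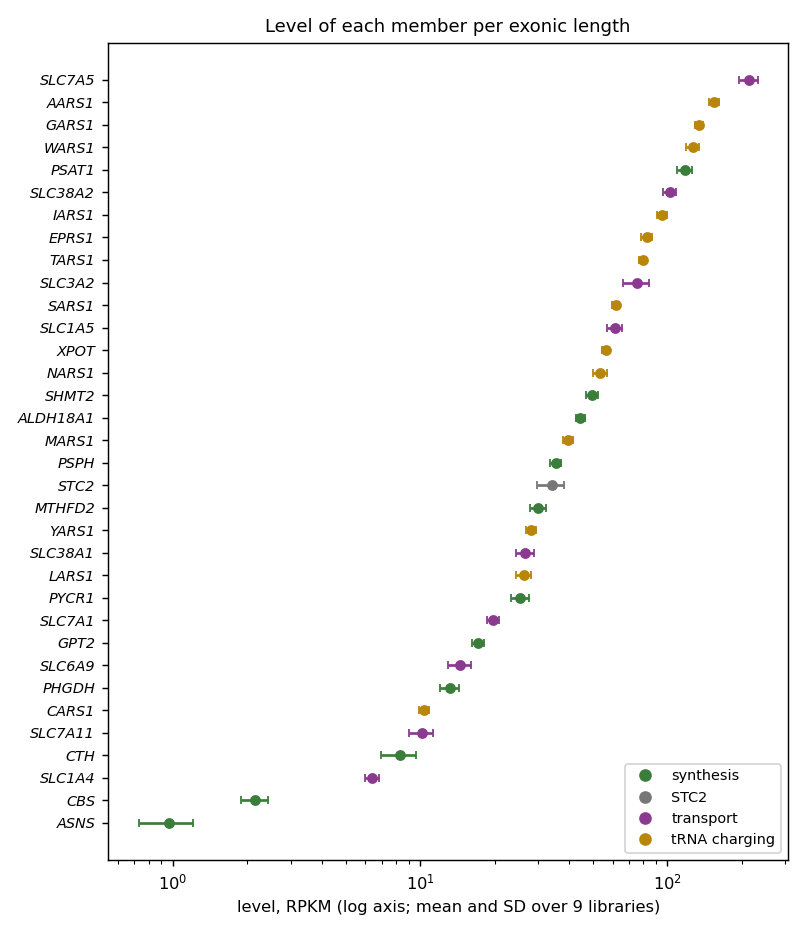
Mean level of each of the 34 members in RPKM on a log axis, with the SD over the 9 libraries, coloured by functional group. SLC7A5 is highest at 213 RPKM and ASNS lowest at 0.965 RPKM.

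The counts of ASNS are limited by the annotation. Exons of other annotated genes, among them ENSG00000284707 on the same strand, together cover 44.6% of the exonic bases of ASNS. Reads that fall on ASNS and another gene were counted for neither. In all, 888 reads were assigned to ASNS over the 9 libraries. Its level and its fold changes are therefore uncertain. For 6 members (MTHFD2, PYCR1, SLC1A5, CARS1, MARS1 and WARS1) the sum of the counts made per strand was more than 1.2 times the count made without regard to strand, which marks overlap with a gene on the opposite strand. CBS has a near-identical copy in the genome, with which its reads may be shared.

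Between WT and NLS Mut, a pair of transporter genes and STC2 differed. SLC3A2, SLC38A1 and STC2 were lower in cells with WT, by 21.4%, 15.7% and 18.3%. These were the only members called at an adjusted p under 0.05 with edgeR's quasi-likelihood test, and no member was called higher. Among all 18653 genes tested, 0.504% were called in this comparison, 0.204% lower and 0.3% higher. The log2 fold change was below 0 in 27 of the 34 members, against 51.1% of all genes, with a median of -0.08 over the members and of -0.01 over all genes. In 15 members every WT library lay below every NLS Mut library, and in 1 member, WARS1, every one lay above; the shares among all genes were 9.42% and 8.25%. Without adjustment, 12 members had a p under 0.05, as did 11.6% of all genes. The count of 3 was 8 with DESeq2, with a correction for GC content and length or without vector replicate 1, where 1.32%, 1.15% and 0.932% of all genes with an adjusted p were called lower, the added members being LARS1, MTHFD2, PSAT1, SLC1A5 and SLC7A5. The count was 1 (SLC3A2) without vector replicate 2, WT replicates 2 or 3 or NLS Mut replicate 3, where 0.0454% to 0.351% of all genes were called lower. It was 0 without WT replicate 1 or NLS Mut replicates 1 or 2, where the share was 0.0362% to 0.0504%.

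SLC3A2 (ENSG00000168003.18, chr11:62856102-62888875 on GRCh38, plus strand) encodes the heavy chain that carries SLC7A5 and SLC7A11 to the plasma membrane. It stood at 302, 361 and 343 CPM in WT, at 431, 435 and 413 CPM in NLS Mut and at 370, 404 and 439 CPM in vector. The WT libraries were below every library of both other groups. The log2 fold change was -0.35 against NLS Mut (SE 0.06, 95% interval -0.48 to -0.22, adjusted p = 0.0055 by edgeR) and -0.27 against vector (95% interval -0.40 to -0.14, adjusted p = 0.046). NLS Mut and vector overlapped, with a log2 difference of 0.08 (95% interval -0.05 to 0.21, adjusted p = 0.68). The call against NLS Mut was lost without WT replicate 1 (-0.27, adjusted p = 0.080), NLS Mut replicate 1 (-0.33, adjusted p = 0.071) or NLS Mut replicate 2 (-0.33, adjusted p = 0.086). The call against vector held in the fits of edgeR that left out vector replicate 1 or WT replicate 2 and was lost without each of the other 7 libraries, with log2 values of -0.28 to -0.20 and adjusted p of 0.074 to 0.34.

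SLC7A5 (ENSG00000103257.9, chr16:87830023-87869488, minus strand) is a light chain that pairs with SLC3A2 in the exchanger of leucine and other large neutral amino acids. The vector libraries held 997, 1064 and 1137 CPM, the WT libraries 904, 928 and 909 CPM, and the NLS Mut libraries 1115, 1051 and 993 CPM. WT was again below all other libraries, and the other two groups overlapped. The decrease against vector was called (log2 -0.22, SE 0.05, adjusted p = 0.038 by edgeR). The difference from NLS Mut was of like size and was not called in the main fit (log2 -0.21, 95% interval -0.31 to -0.10, adjusted p = 0.061). Leaving aside the stricter threshold and the fits without 1 library, 7 of 9 alternatives called this difference, with values of -0.21 to -0.20 over the 9. One of the 7 adjusted the counts for GC and length (-0.20, adjusted p = 0.0029 by edgeR). Of the 9 fits without 1 library, 2 called it (-0.24 to -0.15 over the 9). The value against vector was -0.13 (adjusted p = 0.13) after correction for GC content and length, and the call was lost without any library other than vector replicate 1 and WT replicate 2 (-0.23 to -0.18, adjusted p 0.051 to 0.31). The GC content of SLC7A5 exons was 60.4%, against a median of 49.3% over all tested genes.

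SLC38A1 (ENSG00000111371.16, chr12:46183063-46270017, minus strand) is a sodium-coupled importer of glutamine and other small neutral amino acids. It stood at 253, 239 and 255 CPM in WT, at 302, 289 and 294 CPM in NLS Mut and at 269, 253 and 249 CPM in vector. Here NLS Mut was the group that stood apart, above every other library, while WT and vector overlapped. The log2 fold change of WT against NLS Mut was -0.25 (SE 0.06, 95% interval -0.36 to -0.13, adjusted p = 0.036 by edgeR). Against vector the values were -0.05 for WT (95% interval -0.16 to 0.07, adjusted p = 0.82) and 0.20 for NLS Mut (95% interval 0.09 to 0.31, adjusted p = 0.085). The call between the GRP78 forms was lost without any single library other than vector replicates 1 and 3, with log2 values of -0.26 to -0.21 and adjusted p of 0.059 to 0.24.

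STC2 (ENSG00000113739.11, chr5:173314713-173329503, minus strand) encodes stanniocalcin 2, a secreted glycoprotein that ATF4 induces under stress. Its levels were 201, 239 and 239 CPM in vector, 189, 180 and 171 CPM in WT and 239, 213 and 209 CPM in NLS Mut. All 3 WT libraries were below the lowest of the others, which was vector replicate 1. The decrease against vector was -0.33 on the log2 scale (SE 0.07, adjusted p = 0.019 by edgeR), and that against NLS Mut was -0.29 (SE 0.07, adjusted p = 0.047). The difference between NLS Mut and vector was -0.04 (95% interval -0.18 to 0.10, adjusted p = 0.89). The call against NLS Mut remained only without vector replicate 1 or 3, and the values without each of the other libraries were -0.32 to -0.22 with adjusted p of 0.061 to 0.33. The call against vector was lost without vector replicate 2 (-0.28, adjusted p = 0.19), vector replicate 3 (-0.29, adjusted p = 0.17), WT replicate 1 (-0.36, adjusted p = 0.054) or WT replicate 3 (-0.29, adjusted p = 0.17).

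**Figure D2:**
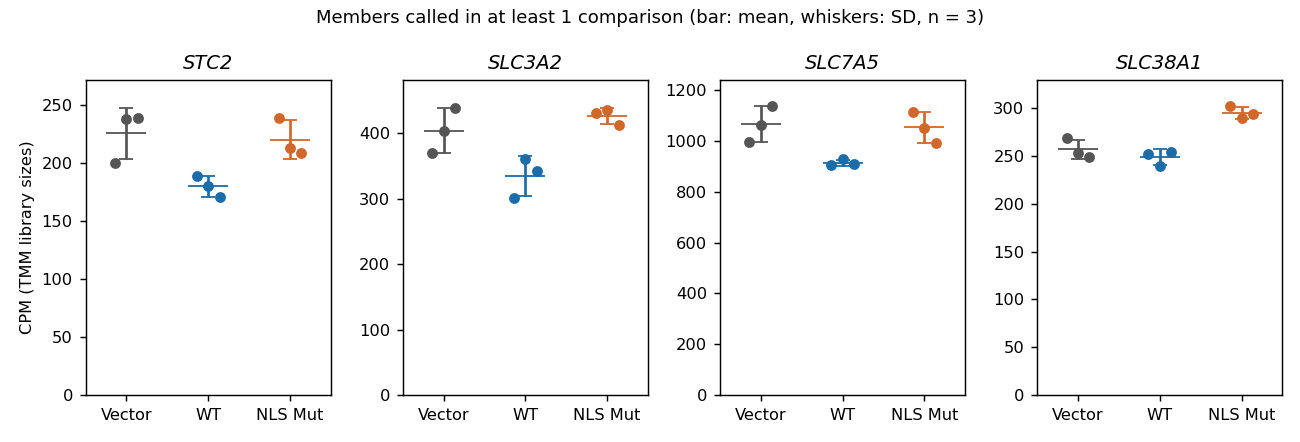
CPM of STC2, SLC3A2, SLC7A5 and SLC38A1 in each library by group, with the mean and SD of the 3 libraries; each vertical axis starts at 0. The WT libraries are lowest for STC2, SLC3A2 and SLC7A5, and the NLS Mut libraries are highest for SLC38A1, at 289 to 302 CPM.

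For the 9 transporters as a group the median difference of WT from NLS Mut was -0.18 on the log2 scale, with 8 of 9 values below 0. In 6 of 9 every WT library was below every NLS Mut library, against 9.42% of all genes. Their CPM summed to 2685 to 2753 in the WT libraries, below the vector libraries (2915 to 3034) and the NLS Mut libraries (2947 to 3170). SLC7A5 and SLC38A2 made up most of these sums. Besides SLC3A2, SLC38A1 and SLC7A5, the groups did not overlap in SLC7A11, SLC1A5 and SLC7A1. SLC7A11, the cystine importer, had a log2 value of -0.18 (95% interval -0.35 to -0.01, adjusted p = 0.40 by edgeR). SLC1A5, an importer of glutamine, had -0.19 (95% interval -0.31 to -0.06, adjusted p = 0.16), and SLC7A1, an importer of arginine and lysine, had -0.12 (95% interval -0.25 to 0.00, adjusted p = 0.45). SLC38A2, a relative of SLC38A1 with a similar range of substrates, had a value of 0.01 (95% interval -0.11 to 0.12), so that a difference of the size seen for SLC38A1 lies outside its interval. The intervals of the neutral amino acid carrier SLC1A4 and of the glycine carrier SLC6A9 spanned 0. Summed marker genes also differed between these groups. The 6 mesenchymal markers summed to 767 to 824 CPM in WT, 712 to 744 CPM in NLS Mut and 651 to 754 CPM in vector, and DCN was listed at 0 in every library. COL3A1 had 1, 12 and 5 reads and LUM had 2, 1 and 1 reads in WT replicates 1, 2 and 3, and neither had a read in a vector or NLS Mut library. Of the 6, 3 were tested and none was called by edgeR between the forms: COL1A1 was 0.26 (adjusted p = 0.052), PDGFRB 0.50 (adjusted p = 0.19) and VIM 0.07. The 5 epithelial markers summed to 3489 to 3617 CPM in WT, 3114 to 3235 CPM in NLS Mut and 3231 to 3656 CPM in vector, so that WT overlapped vector and NLS Mut was lower than WT. Between the forms CDH1 (0.27) and KRT19 (0.23) were called higher in WT, and CDH1 was called lower in NLS Mut than in vector (-0.25, adjusted p = 0.044 by edgeR). The part of these markers in the values of the members was not tested.

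The 11 synthesis genes had a median of -0.11 between WT and NLS Mut, with 8 of 11 values below 0, none called in either direction by edgeR, and 4 with an unadjusted p under 0.05 (CTH, PSAT1, MTHFD2 and GPT2). Among all genes, 11.6% had an unadjusted p under 0.05. In these 4 synthesis genes every WT library was below every NLS Mut library, against 9.42% of all genes. Both counts come from the same libraries, so the second is not separate support. PSAT1 stood at 226, 241 and 251 CPM in WT, at 293, 267 and 270 CPM in NLS Mut and at 256, 256 and 253 CPM in vector. The vector libraries of PSAT1 lay between the groups of the 2 GRP78 forms, without overlap with either. Its log2 fold change between the forms was -0.21 (95% interval -0.33 to -0.09, adjusted p = 0.090 by edgeR), and it was -0.09 for WT and 0.12 for NLS Mut against vector, neither of them called.

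CTH, the cystathionine gamma-lyase that releases cysteine, held 14.8, 19.3 and 18.3 CPM in WT, 22.7, 22.6 and 21.7 CPM in NLS Mut and 17.8, 17.6 and 24.9 CPM in vector. WT was below NLS Mut in all libraries, and the vector libraries overlapped both groups. The log2 fold change between the forms was -0.35, as large as that of SLC3A2, with an interval of -0.63 to -0.08 and an adjusted p of 0.27 by edgeR. ASNS went the other way in its point estimate, at 0.34, with an interval of -0.18 to 0.85 that spanned 0 (adjusted p = 0.66). Its levels were 3.53, 4.93 and 5.35 CPM in WT, 4.56, 3.26 and 3.12 CPM in NLS Mut and 6.24, 3.62 and 4.11 CPM in vector. The 3 groups of ASNS overlapped, and no difference was detected with the few reads assigned to this gene.

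Of the serine and one-carbon enzymes, PHGDH, the first enzyme of serine synthesis, had a log2 value of -0.12 between the forms, PSPH, the last, -0.11, and SHMT2, which makes glycine from serine in mitochondria, -0.06. MTHFD2, the mitochondrial folate enzyme, had -0.20 (95% interval -0.33 to -0.07, adjusted p = 0.14 by edgeR). The proline enzymes ALDH18A1 and PYCR1 had -0.06 and 0.04, CBS had 0.10 and GPT2, the mitochondrial alanine aminotransferase, -0.15. Apart from MTHFD2 and GPT2, the intervals of these genes spanned 0.

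The tRNA charging genes covered the narrowest range of the 3 functional groups. Their log2 fold changes between WT and NLS Mut ran from -0.19 to 0.10 with a median of -0.06, and their 95% intervals lay within -0.30 to 0.20. None of the 13 was called by edgeR. An unadjusted p under 0.05 was found in 11.6% of all genes and in 2 of the 13. These were LARS1, the leucyl-tRNA synthetase, and NARS1, the asparaginyl-tRNA synthetase. LARS1 stood at 209, 191 and 207 CPM in WT, at 230, 229 and 232 CPM in NLS Mut and at 210, 209 and 201 CPM in vector. The NLS Mut libraries of LARS1 were above all others, and the log2 fold change between the forms was -0.19 (95% interval -0.30 to -0.07, adjusted p = 0.14 by edgeR). NARS1 stood at 207, 209 and 221 CPM in WT, at 235, 229 and 238 CPM in NLS Mut and at 224, 202 and 200 CPM in vector, again with the NLS Mut libraries above all others. Its log2 fold change was -0.14 (95% interval -0.26 to -0.02, adjusted p = 0.32).

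AARS1, the most abundant of the group, held 710, 730 and 756 CPM in vector, 682, 651 and 672 CPM in WT and 700, 688 and 666 CPM in NLS Mut. The 2 GRP78 groups overlapped and both lay below vector. The log2 values against vector were -0.13 for WT (adjusted p = 0.24 by edgeR) and -0.10 for NLS Mut (adjusted p = 0.42), and the value between the forms was -0.04 (95% interval -0.13 to 0.06). WARS1, the tryptophanyl-tRNA synthetase, was the one member in which every WT library exceeded every NLS Mut library, with a log2 value of 0.10 (95% interval 0.00 to 0.20, adjusted p = 0.46). XPOT, which exports tRNA from the nucleus, had -0.07 (95% interval -0.18 to 0.03).

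**Figure D3:**
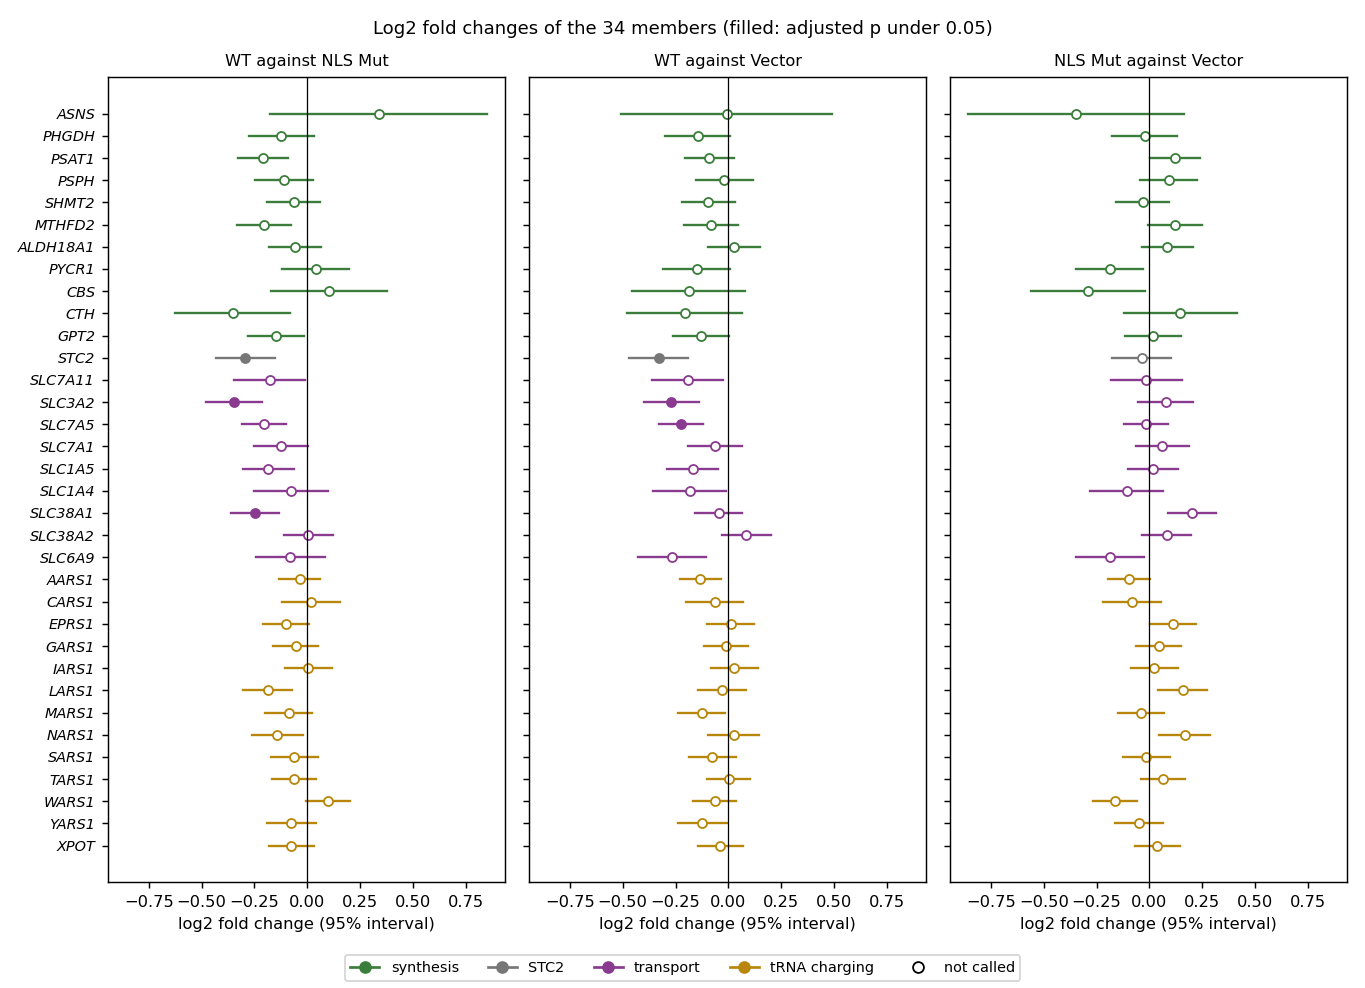
Log2 fold changes of the 34 members in the 3 comparisons, with 95% intervals, coloured by functional group; filled points were called at an adjusted p under 0.05. The tRNA charging genes sit within -0.19 to 0.10 in the left panel, and the called points are SLC3A2, SLC38A1, STC2 and SLC7A5.

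Against vector, SLC3A2, SLC7A5 and STC2 were called lower in WT, with the values given above, and no member was called higher by edgeR. The share called among all genes was 0.558%, with 0.343% lower and 0.214% higher. Over the 34 members, 28 log2 values were below 0 (50.5% of all genes), the median was -0.08 (0.00 over all genes), and 10 had an unadjusted p under 0.05 (11.7% of all genes). Every WT library was below every vector library in 14 members and above it in none, against 6.54% and 6.53% of all genes. The transporters again had the lowest median, at -0.18, compared with -0.10 for the synthesis genes and -0.04 for the tRNA charging genes. SLC6A9 was not called although its value was as low as that of SLC3A2, at -0.27 (95% interval -0.43 to -0.11, adjusted p = 0.13 by edgeR). With the correction for GC content and length the count was again 3, but SLC7A5 (-0.13, adjusted p = 0.13) was replaced by SLC7A11 (-0.29, adjusted p = 0.0093). The count of 3 was 6 without vector replicate 1 (with AARS1, SLC1A5 and SLC6A9 added), where 3.68% of all genes were called lower. It was 1 (STC2) without any single NLS Mut library, where 0.176% to 0.202% were. It was 0 without vector replicates 2 or 3, WT replicates 1 or 3, or when the fit held only these 2 groups. In those fits 0.056% to 0.0996% of all genes were called lower. SLC38A2 was called higher without vector replicate 1 (0.17, adjusted p = 0.013), as were 2.65% of all genes.

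NLS Mut compared with vector had no called member in either direction with edgeR, while 0.793% of all genes were called, 0.499% lower and 0.295% higher. Without adjustment 9 members had a p under 0.05, as did 12.2% of all genes. DESeq2 called WARS1 lower and SLC38A1 higher, with 1.99% and 2.3% of all genes with an adjusted p called in these directions. Without vector replicate 1, edgeR called PYCR1 lower and EPRS1, NARS1, SLC38A1 and SLC38A2 higher, against 2.66% and 2.38% of all genes. The log2 values were divided between 16 below and 18 above 0 (50.3% of all genes were below 0), with a median of 0.02. The groups did not overlap in 6 members lower and in 6 higher, against 8.82% and 9.28% of all genes. The group medians were 0.02 for each of synthesis, transport and tRNA charging. The 95% intervals of CBS (-0.56 to -0.02) and SLC38A1 (0.09 to 0.31) lay on opposite sides of 0. Both comparisons with vector use the same 3 vector libraries and are therefore linked.

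The mean of WT was the lowest of the 3 groups in 23 of 34 members. The order WT, vector, NLS Mut from low to high was found in 12 members, among them SLC3A2, SLC38A1, SLC1A5, PSAT1, MTHFD2 and CTH, and the order WT, NLS Mut, vector in 11, among them STC2, SLC7A5, SLC7A11, SLC1A4 and AARS1. In ASNS, CARS1, CBS, PYCR1 and WARS1 the mean of NLS Mut was lowest. Only 4 members were called in any comparison, so these orders are of means and most neighbours in them were not separated by the test. Per library, the median member lay 0.10, 0.09 and 0.09 log2 units below the vector mean in WT replicates 1, 2 and 3, and 0.09 above, 0.01 above and 0.03 below it in NLS Mut replicates 1, 2 and 3. NLS Mut replicate 1 thus lay highest of its group, and the 3 WT libraries lay close together.

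**Figure D4:**
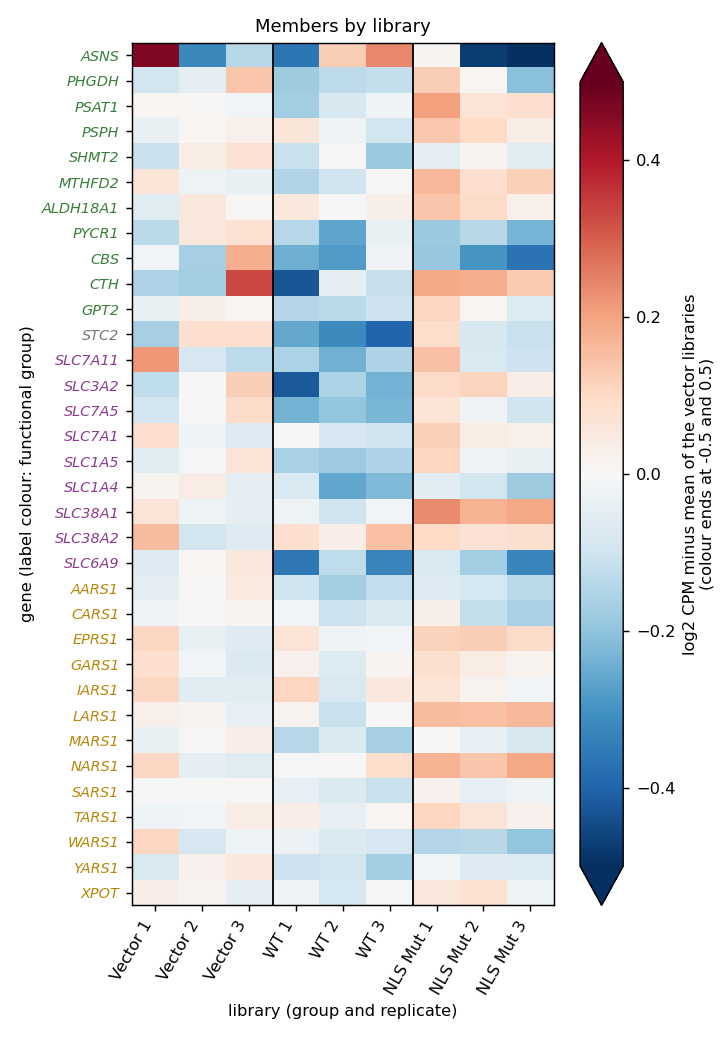
Log2 CPM of each member in each library minus the mean of the 3 vector libraries, from -0.5 (blue) to 0.5 (red, with values beyond these ends in the end colours), with label colours for the functional groups. The WT columns are blue across most transporter rows. Among the tRNA charging rows, the NLS Mut columns are above 0 for NARS1 (0.14 to 0.19) and LARS1 (0.15 to 0.17). They are below 0 for WARS1 (-0.20 to -0.14).

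Members with and without the ATF core in their promoter window had similar medians, which were not tested against each other. Between WT and NLS Mut, the 13 members with a match had a median log2 value of -0.08 (2 called), the 14 with a window and no match -0.09 (1 called), and the 7 without a window in the table -0.11 (0 called by edgeR).

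MYC, a factor known to regulate amino acid transporter genes such as SLC7A5 and SLC1A5, was called lower in WT against both other groups. It stood at 603, 719 and 749 CPM in vector, at 431, 537 and 502 CPM in WT and at 714, 731 and 678 CPM in NLS Mut. As with SLC3A2 and SLC7A5, the WT libraries were below all others. The log2 fold change was -0.53 against NLS Mut (adjusted p = 9.5e-05 by edgeR) and -0.49 against vector (adjusted p = 0.00024). The part of MYC in the values of the transporters was not tested.

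Neighbouring gene groups were measured for context. Among 20 other ATF4 targets, of which 19 were tested, ATF3, a stress-induced transcription factor, was the only one called between WT and NLS Mut (log2 -0.65, adjusted p = 0.00035 by edgeR). Against vector, 5 of the 19 were called lower in WT and none higher (0.343% and 0.214% of all genes), led by ATF3 (-0.83), the stress factor DDIT3 (-0.63) and PPP1R15A, a phosphatase subunit that reverses eIF2 phosphorylation (-0.55). The median over these 19 genes was -0.10 between the forms and -0.26 for WT against vector, against -0.08 for the 34 members in each. The exons of DDIT3 overlap those of MARS1 on the opposite strand. NLS Mut had none of the 19 called against vector with edgeR, and their median was -0.16. An unadjusted p under 0.05 was found in 7 of them and in 12.2% of all genes.

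The synthetases that were not members gave no call with edgeR in any comparison. The 9 other cytosolic synthetases had medians of -0.03, -0.01 and 0.02 in the order WT against NLS Mut, WT against vector and NLS Mut against vector. Of these genes, 4, 2 and 2 had an unadjusted p under 0.05. In the same order, 11.6%, 11.7% and 12.2% of all genes had one. The 3 scaffold proteins of the synthetase complex had medians of -0.10, -0.05 and 0.07, with none at an unadjusted p under 0.05. The 15 mitochondrial synthetases tested, of 17, had medians of -0.03, -0.01 and 0.10, with 3, 1 and 2 genes at an unadjusted p under 0.05. The 27 other enzymes of amino acid metabolism had medians of -0.01, 0.03 and 0.05 and no called gene, with 5, 3 and 8 at an unadjusted p under 0.05. The 17 other amino acid transporters tested had medians of -0.14, -0.12 and 0.08, with 5, 4 and 3 at an unadjusted p under 0.05. In 7 of these 17 every WT library was below every NLS Mut library, against 9.42% of all genes. Among them only SLC7A7, a light chain that also pairs with SLC3A2, was called by edgeR, and only for WT against vector (-1.28, adjusted p = 0.037). Its mean was 1.53 CPM in WT, 2.61 CPM in NLS Mut and 3.72 CPM in vector. It had 549 reads over all libraries, so its fold changes are imprecise. The 4 kinases of eIF2 were not called by edgeR in any comparison, with 0, 1 and 1 at an unadjusted p under 0.05.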

How the data were processed

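For each of the 9 libraries the authors deposited unnormalized counts of reads per gene from their alignments, with replicates kept apart; the submitters' processing notes name STAR 2.7.9a, DESeq2 1.36.0 and the build GRCh38.p14, and the annotation release is not given in the sources used here. The column counted without regard to strand was taken, because 50.6% to 51.9% of strand-assigned reads lay on the forward strand. The 4 summary lines (27.6% to 30.7% of the reads of a library) name no gene and entered neither library sizes nor tests.

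Gene symbols were found for 61399 of 61544 genes. Exonic length, GC content and coordinates came from GENCODE release 29 (GRCh38), in which 58325 genes were matched by identifier. Counts were fitted with edgeR 4.0.16 in R 4.3.3: the filter filterByExpr left 18653 genes, library sizes were scaled by TMM (factors 0.989 to 1.02), and all 9 libraries entered 1 quasi-likelihood model with a coefficient per group. The median biological coefficient of variation was 11.2%. Benjamini-Hochberg adjustment ran over all genes tested in a comparison, and called means an adjusted p under 0.05. A standard error is the size of the log2 fold change over the root of its F statistic, and intervals are 95% intervals on the log2 scale. No 2 replicates matched within counting error (chi-square per degree of freedom 3.56 to 12.6), so none was treated as 1 library deposited more than once; this does not show that the cultures were separate. With 3 libraries per group an exact permutation test could not go below p = 0.10.

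The members, the gene lists and the tests were chosen with earlier results of these data known. Members given in every library are those called in any comparison, the 2 with the largest log2 difference between WT and NLS Mut in each functional group and the one with the highest RPKM in each; HSPA5, ATF4 and MYC were added as the transfected gene and regulators. Other members were named after their values were seen. In each neighbouring gene list at most 3 called genes are named. Alternatives were DESeq2 1.42.0, its size factors, library size alone, no filter, the sum of both strands, the 2 compared groups alone, the replicate number as a block, a loess correction for GC content and length, a threshold of 0.01 and leaving out each library. The procedure was tested on simulated data.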

Additional observations from a re-analysis of the deposited data

Results flagged for a closer look

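The following members responded differently to the 2 GRP78 forms, by the direct test of WT against NLS Mut in the model over all genes (edgeR, Benjamini-Hochberg adjusted). The log2 difference was -0.35 for SLC3A2 (adjusted p = 0.0055), with 302 to 361 CPM in the WT libraries and 413 to 435 CPM in the NLS Mut libraries. It was -0.29 for STC2 (adjusted p = 0.047), with 171 to 189 against 209 to 239 CPM, and -0.25 for SLC38A1 (adjusted p = 0.036), with 239 to 255 against 289 to 302 CPM. In SLC3A2 and STC2 it was WT that stood apart from vector, and in SLC38A1 the NLS Mut libraries lay above those of both other groups. Of the 9 fits that left out 1 library, SLC3A2 was called in 6, and STC2 and SLC38A1 in 2 each. The call of STC2 was also lost with DESeq2 size factors and with the sum of both strands, and that of SLC38A1 with the sum of both strands.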

How the results depend on the processing

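The counts of called members depended on the processing, and the directions of the called members did not in any of the 19 alternatives. Between WT and NLS Mut, the 3 members called lower became 8 with DESeq2. They were also 8 with the GC and length correction, with or without the replicate block. They became 5 when the fit held only the 2 groups compared, 1 with the sum of both strands and 1 at a threshold of 0.01. When a library was left out they ranged from 0 to 8. SLC3A2 was called in all of these except 3 fits without 1 library. Among all genes, 0.204% were called lower in the main fit. The share was 1.32% with DESeq2, and 1.15% and 1.42% with the correction without and with the block. It was 0.793% with the 2 groups alone, 0.119% with the sum of both strands and 0.0362% to 0.932% without 1 library. Against vector, the 3 members lower in WT stayed 3 with the GC and length correction, with or without the block, but SLC7A5 was lost and SLC7A11 was called. The count became 1 with the sum of both strands, 0 with the 2 groups alone, 0 at a threshold of 0.01 and 0 to 6 without 1 library. The members called higher ranged from 0 to 1. Of all genes, 0.343% were called lower in the main fit, and 0.434% and 0.552% with the correction without and with the block. The share was 0.304% with the sum of both strands, 0.0996% with the 2 groups alone and 0.056% to 3.68% without 1 library. Without 1 library, 0.0407% to 2.65% of all genes were called higher. For NLS Mut against vector, DESeq2 called 1 member lower and 1 higher, and the GC and length correction with or without the block called 1 lower (WARS1). Leaving out a library gave 0 to 1 lower and 0 to 4 higher. Among all genes with an adjusted p, DESeq2 called 1.99% lower and 2.3% higher. The correction without and with the block called 0.59% and 0.692% lower. Without 1 library, 0.114% to 2.66% were called lower and 0.0568% to 2.38% higher. The median of the members for WT against vector moved from -0.08 to -0.11 with library size alone and lay between -0.10 and -0.079 without 1 library, and that of NLS Mut against vector lay between -0.032 and 0.044. The cause of these changes was not tested.

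The labels do not state whether the replicate numbers pair the libraries. Deviations from the group means correlated at -0.03 to 0.12 between same-numbered libraries and at -0.11 to 0.08 between the others, which does not settle it. With the number as a block, 4 members were called lower between the forms, 3 lower for WT against vector and 0 for NLS Mut against vector. The share of all genes called lower was 0.547% between the forms (0.204% without the block) and 0.826% for WT against vector (0.343% without it). For NLS Mut against vector 0.745% of all genes were called lower and 0.488% higher with the block.

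Values that changed sign belonged to members whose log2 fold change was at most 0.08 in size, and none was called. Between the forms these were 8 values of CARS1, IARS1, PYCR1 and SLC38A2, for WT against vector 39 values of 9 members and for NLS Mut against vector 32 values of 9 members. Of the values given in the text, PYCR1 between the forms was -0.0063 with the sum of both strands and -0.010 to 0.11 without 1 library, SLC38A2 between the forms was -0.018 to 0.041 without 1 library, and SLC38A2 for NLS Mut against vector was -0.0098 with the GC and length correction and -0.0097 with that correction and the block. The precision is limited by 3 libraries per group and, for ASNS and CBS, by low counts.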
